A study of Homo sapiens with 12 samples.

Results

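A set of 10 genes that carry glucose into the cell and turn it into lactate was followed by RNA-seq in Panc1 and MiaPaCa2, established lines from human pancreatic ductal adenocarcinoma, each as wild-type and as ASAP2 knockout cells. The members are the glucose transporters SLC2A1 and SLC2A3, the hexokinases HK1 and HK2, the fructose 2,6-bisphosphate enzymes PFKFB3 and PFKFB4, the lactate dehydrogenase subunits LDHA and LDHB, the pyruvate dehydrogenase kinase PDK1 and the lactate exporter SLC16A3. They were chosen by gene symbol, and all 10 of 10 were found among the 22650 symbols listed in any library. The 12 libraries form 4 groups of 3: Panc1 wild-type, Panc1 ASAP2 knockout, MiaPaCa2 wild-type and MiaPaCa2 ASAP2 knockout. ASAP2 encodes an ARF GTPase-activating protein with SH3, ankyrin repeat and PH domains. The sources used here do not give how the knockouts were made, whether the cells are 1 clone or a pool, or whether replicates are separate cultures, so p-values measure the spread between these libraries, which may be technical.

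Cells take up glucose through SLC2A family carriers, hexokinases trap it as glucose 6-phosphate, and fructose 2,6-bisphosphate, made and broken down by the PFKFB enzymes, activates phosphofructokinase. Lactate dehydrogenase interconverts pyruvate and lactate. It is a tetramer of LDHA and LDHB subunits, and tetramers rich in LDHA are classically tied to lactate production, those rich in LDHB to lactate use. PDK1 phosphorylates and switches off pyruvate dehydrogenase, the gate to mitochondrial oxidation, and SLC16A3, also called MCT4, exports lactate with a proton. Several of these genes are textbook targets of the hypoxia-inducible factors and of MYC, and pancreatic ductal adenocarcinoma is known for high glycolysis.

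The promoters of the lactate dehydrogenase genes are shown because the largest difference between the lines lay in LDHB and not in LDHA. That of HK2 is shown because HK2 was called in both knockouts in opposite directions. Its MiaPaCa2 call was lost in 6 of 27 alternatives and turned sign in 1 more, relative to neighbours. RefSeq promoter windows of GRCh38.p14, from 250 bases before to 50 bases after a start, were matched for 9 of the 10 genes, with 23 windows in all. SLC2A3 was not matched. Each sequence runs 5′ to 3′ on the strand of its gene. Capitals mark ACGTG on either strand, the core of the hypoxia response element, or CACGTG, the E-box bound by MYC and its partners, which holds an ACGTG on each strand.
LDHA, chr11:18394313-18394612, plus strand: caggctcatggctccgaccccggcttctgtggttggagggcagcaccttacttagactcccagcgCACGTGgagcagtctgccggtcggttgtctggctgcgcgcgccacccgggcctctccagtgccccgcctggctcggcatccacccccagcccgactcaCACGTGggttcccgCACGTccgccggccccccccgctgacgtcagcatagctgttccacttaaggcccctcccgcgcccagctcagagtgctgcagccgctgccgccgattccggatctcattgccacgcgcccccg
LDHB, chr12:21657793-21658092, minus strand: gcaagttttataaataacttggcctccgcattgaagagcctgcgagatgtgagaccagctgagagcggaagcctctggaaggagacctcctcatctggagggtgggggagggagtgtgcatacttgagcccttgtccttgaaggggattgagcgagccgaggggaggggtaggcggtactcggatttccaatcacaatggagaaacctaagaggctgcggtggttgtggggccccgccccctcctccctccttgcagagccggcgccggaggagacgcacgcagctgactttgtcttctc
HK2, chr2:74834920-74835219, plus strand: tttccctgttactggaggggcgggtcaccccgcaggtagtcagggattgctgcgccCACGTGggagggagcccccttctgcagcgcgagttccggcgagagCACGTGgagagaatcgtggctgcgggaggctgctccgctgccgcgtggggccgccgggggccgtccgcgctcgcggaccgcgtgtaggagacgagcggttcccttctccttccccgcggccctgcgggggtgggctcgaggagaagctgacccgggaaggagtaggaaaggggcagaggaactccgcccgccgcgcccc
The LDHA window held 5 ACGTG matches over both strands, 4 of them inside its 2 E-boxes. This was the first of 2 LDHA windows, and the other held none. The LDHB window held no match of either motif. Its GC content was 59.0%, against 70.0% in the LDHA window and a median of 58.7% over all windows. The HK2 window, the second of 2, held 2 E-boxes and with them 4 ACGTG matches. The other HK2 window, not shown, held 2 ACGTG matches and no E-box. ACGTG was found in 6 of the 23 member windows and in 21.4% of all 35116 windows, and CACGTG in 3 of 23 and in 7.3%. Besides LDHA and HK2, the genes with an ACGTG match were PFKFB3, PDK1 and SLC16A3. These are matches of letters, and which start the cells used was not measured.

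ASAP2 itself was measured first. It stood at 38.6, 37.5 and 34.6 FPKM (fragments per kilobase of transcript, scaled to mapped fragments) in the 3 Panc1 wild-type libraries and at 14.2, 14.5 and 12.7 in the knockout libraries. It was lower by 1.36 (log2, SE 0.07, limma with Benjamini-Hochberg adjustment, adjusted p = 1.5e-08). In MiaPaCa2 it stood at 13.2, 13.6 and 13.8 in wild-type and at 12.01, 13.8 and 11.3 in knockout libraries, and these ranges overlapped (-0.13, adjusted p = 0.197). The mRNA level therefore does not separate the MiaPaCa2 groups, which are called wild-type and knockout by label only.

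The libraries listed 17958 to 19105 genes each, and replicates of a group correlated at r = 0.994 to 0.997. Read depth is unknown. All 8 markers of ductal and simple epithelium were listed, with 7 at 1 FPKM or more in Panc1 and 5 in MiaPaCa2. The summed epithelial markers ran from 1279 to 1317 FPKM in Panc1 wild-type and 1197 to 1306 in knockout, and from 1283 to 1333 in MiaPaCa2 wild-type and 937 to 968 in knockout. KRT19 averaged 541 and 254 FPKM in Panc1 wild-type and knockout and 105.4 and 35.01 in MiaPaCa2. KRT8 averaged 372 and 514 in Panc1 and 649 and 457 in MiaPaCa2. EPCAM was at 0 in all MiaPaCa2 libraries, and CDH1 was at most 0.419 in Panc1 and 0.02 in MiaPaCa2. Markers of endothelium summed to at most 0.034 and those of acinar and islet cells to at most 0.123. The blood cell sum was nearly all CD68, at 175 and 164 FPKM in Panc1 wild-type and knockout and 26.7 and 18.7 in MiaPaCa2. The fibroblast and stellate sum was 1.11 to 3.25 in Panc1, 153 to 158 in MiaPaCa2 wild-type and 171 to 173 in knockout, most of the MiaPaCa2 sum being COL1A2. RGS5, of the same list, averaged 41.004 and 21.4 FPKM in MiaPaCa2 wild-type and knockout. The part of these marker changes in the knockout results was not tested. In such bulk libraries fewer expressing cells and less RNA per cell cannot be told apart.

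One further property of the libraries touches LDHB. Of 30 genes at 20 FPKM or more in every Panc1 library and at a median of at most 0.05 in MiaPaCa2, all 30 were above 0 in MiaPaCa2 wild-type replicate 1, at 0.223% of their Panc1 level. The other 5 MiaPaCa2 libraries had 7 to 16 of them above 0, at 0.00878 to 0.0253%. The reverse set, of 3 genes, stood at 1.03% of the MiaPaCa2 level in Panc1 wild-type replicate 1, at 0.369% in Panc1 knockout replicate 3 and at 0 to 0.0226% in the other 4. This check was chosen after the values were seen, and its cause was not tested.

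The wild-type lines differed in 9 of the 10 genes: 6 were higher in Panc1 (LDHB, SLC16A3, HK1, PFKFB4, LDHA and PDK1) and 3 higher in MiaPaCa2 (HK2, PFKFB3 and SLC2A3). Over all 13340 genes tested 82.7% differed, 41.8% higher and 40.9% lower in Panc1, so the share among the 10 was near the background. Of these 9 calls, SLC2A3 was at 0.04 (adjusted p = 0.741) relative to neighbours within 5 Mb, PFKFB4 was at 0.11 (adjusted p = 0.165) relative to neighbours and at 0.08 (adjusted p = 0.314) with quantile normalization, and PDK1 lost its call in 8 of 26 alternatives. SLC2A3 averaged only 0.0197 FPKM in Panc1 wild-type and 0.760 in MiaPaCa2 wild-type. The added constant of 1 thus holds down its difference (-0.78), also where neighbours are subtracted. LDHB entered the test only through Panc1 and SLC2A3 only through MiaPaCa2, so a line call of either is no support. The median difference over the 10 was 0.25 (log2, Panc1 minus MiaPaCa2), against 0.00 for all genes. In 9 of 10 the wild-type groups did not overlap, against 84.9% of all genes. Between the knockout groups 4 were higher and 5 lower in Panc1 (background 84.6%, with 37.1% higher and 47.5% lower), and 7 of 10 did not overlap (83.8%).

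Knockout in Panc1 went with higher HK2 and SLC16A3 and lower LDHA, PFKFB4 and HK1. These 5 of 10 compare with 63.5% of all genes called, 21.8% higher and 41.6% lower. The median over the 10 was -0.06, against -0.10 over all genes, and 7 of 10 did not overlap between the groups, against 70.1% of all genes. In MiaPaCa2, knockout went with higher SLC2A3, PFKFB4, PDK1 and HK1 and lower SLC16A3, SLC2A1 and HK2. These 7 of 10 compare with 34.1% of all genes called, 17.8% higher and 16.3% lower. They include SLC2A3, which entered the test only through the MiaPaCa2 knockout libraries and had to differ. The median over the 10 was 0.02, against 0.01 over all genes, and again 7 of 10 did not overlap, against 43.5%. Without the first wild-type library of each line, the number higher and lower was 1 and 2 in Panc1 and 4 and 3 in MiaPaCa2. The balance of the Panc1 calls moved with scaling: of all genes called, 65.6% were lower as deposited, 50.6% after median-ratio scaling and 73.8% on a TPM scale. All comparisons draw on the same 12 libraries, so a group serves in more than 1 of them.

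**Figure D1:**
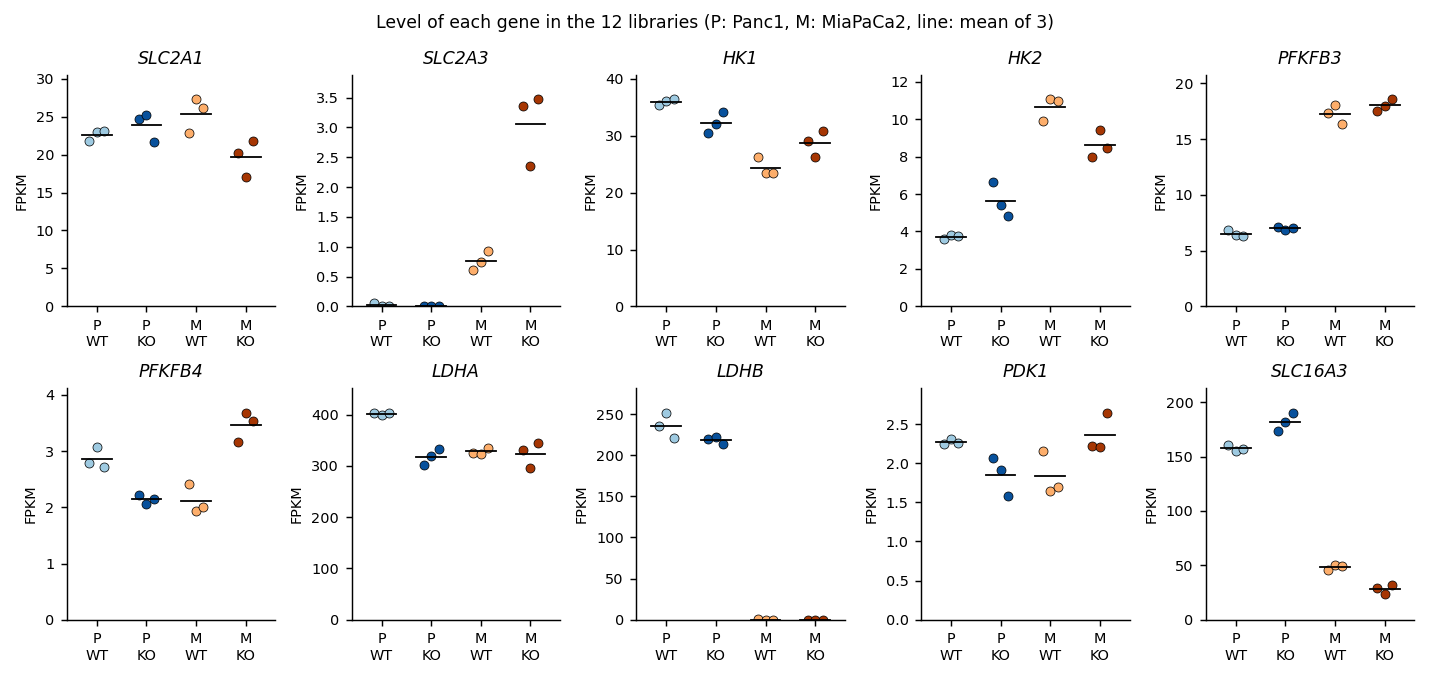
FPKM (vertical axes, linear from 0, 1 scale per gene) of the 10 genes in each library of the 4 groups; points are libraries, bars are means of 3, and a gene absent from a library is drawn at 0. LDHB is near 0 in all 6 MiaPaCa2 libraries, and HK2, PFKFB4 and SLC16A3 move in opposite directions with knockout in the 2 lines.

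Lactate dehydrogenase held the largest contrast between the lines. LDHB, on 12:21788276-21910791 of GRCh37, stood at 236, 252 and 221 FPKM in Panc1 wild-type and at 219, 222 and 213 in Panc1 knockout. In MiaPaCa2 it was 0.614 in wild-type replicate 1, 0.073 in knockout replicate 3 and was not listed in the other 4. The lowest of the 6 Panc1 libraries was thus at 213 and the highest of the 6 MiaPaCa2 libraries at 0.614. On the log2(FPKM + 1) scale the lines differed by 7.66 (SE 0.14, adjusted p = 3e-14) as wild-type and by 7.74 as knockout. These were the differences of rank 6 and rank 7 from the top of 13340 genes. LDHB entered the test only through the Panc1 libraries, and a gene that enters this way had to differ between the lines. Its p-value and ranks are therefore no support. The size of its line difference depends on the added constant and was 10.3 and 10.8 with 0.1 in place of 1.

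LDHA, on 11:18416107-18429972, was abundant in every library and ranked between 106 and 169 of 22650 genes by group mean. It stood at 403, 400 and 404 FPKM in Panc1 wild-type, and at 326, 324 and 334 in MiaPaCa2 wild-type. The wild-type lines did not overlap and differed by 0.29 (log2, SE 0.05, adjusted p = 0.00023). The knockout groups overlapped and did not differ past the threshold (-0.02, adjusted p = 0.684), and the alternatives that passed ran both ways. LDHA was lower in Panc1 there with quantile normalization (-0.18, adjusted p = 0.00189) and higher with a correction for GC content and length (0.15, adjusted p = 0.0375) and relative to neighbouring genes (0.31, adjusted p = 0.00013).

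Because FPKM is per length, the share of LDHA in the sum of LDHA and LDHB can be read within each library without regard to any factor that scales the library as a whole, though a correction by GC content and length can move it. It was 63.1, 61.3 and 64.7% in Panc1 wild-type and 57.9, 59.0 and 61.0% in Panc1 knockout. In MiaPaCa2 it was 99.8, 100 and 100% in wild-type and 100, 100 and 99.98% in knockout. Every MiaPaCa2 library was thus nearly all LDHA, and the LDHB share in Panc1 libraries lay between 35.3 and 42.1%. The line difference was 38.8 points (exact permutation test within genotype, two-sided, p = 0.005, the smallest it can give). It comes from the same LDHB values and is no separate support. The summed level also differed, at 638 ± 13.3 FPKM (SD, n = 3) in Panc1 wild-type and 329 ± 5.25 in MiaPaCa2 wild-type.

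The pair was then compared between knockout and wild-type within each line. In Panc1, LDHA fell from the 3 wild-type values near 402 to 302, 320 and 333 FPKM in the knockout libraries, with no overlap (-0.34, SE 0.05, adjusted p = 0.00015). The 30 tested genes within 5 Mb of LDHA had a median change of -0.38, and relative to them LDHA was at 0.04 (adjusted p = 0.517). With each library corrected for GC content and length the LDHA change was -0.12 (adjusted p = 0.116). LDHB did not pass in Panc1 (-0.11, SE 0.14, adjusted p = 0.514), while the 18 genes around it had a median of -0.51. Relative to them LDHB was higher and passed (0.40, adjusted p = 0.0283). That p-value takes the median as fixed and leaves out the spread of the 18 genes. The spread for LDHB came mostly from MiaPaCa2 wild-type replicate 1, without which the SE was 0.05 and the adjusted p 0.0859. The LDHA share was 63.0 ± 1.66% in Panc1 wild-type and 59.3 ± 1.56% in knockout, a difference of -3.73 points with no overlap (exact permutation p = 0.1, the smallest that 3 against 3 can give). With the correction for GC content and length this difference was -1.56 points. The log2 ratio of LDHA to LDHB did not pass in the fit across all genes (-0.23, 95% interval -0.55 to 0.10, adjusted p = 0.201). This ratio takes in the same LDHB spread from MiaPaCa2 wild-type replicate 1, so the fit cannot settle the Panc1 ratio. The summed level was 638 ± 13.3 in wild-type and 537 ± 13.4 in knockout (exact permutation p = 0.1). In MiaPaCa2 neither passed: LDHA was 332, 295 and 345 FPKM in knockout, around the wild-type values (-0.02, 95% interval -0.14 to 0.10, adjusted p = 0.812).

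**Figure D2:**
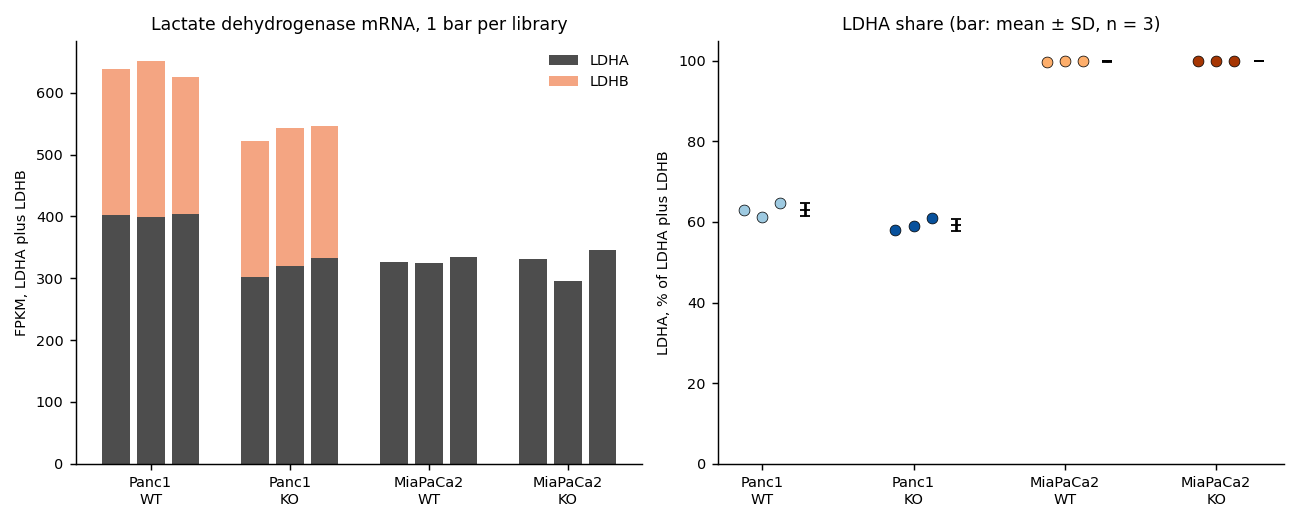
Left, FPKM of LDHA and LDHB stacked (vertical axis from 0), 1 bar per library; right, LDHA as a percent of the sum, points for libraries and bars for mean ± SD (n = 3). MiaPaCa2 libraries hold almost no LDHB, while in Panc1 the LDHA share runs from 57.9 to 64.7%.

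Of the glucose transporters, SLC2A1 (GLUT1, the common basal carrier, on 1:43391024-43424564) stood at 21.7, 23.0 and 23.1 FPKM in Panc1 wild-type and 24.7, 25.2 and 21.7 in Panc1 knockout. These groups overlapped (0.07, SE 0.09, adjusted p = 0.503). It stood at 22.8, 27.3 and 26.2 in MiaPaCa2 wild-type and at 20.3, 17.1 and 21.8 in knockout, where every knockout library was below every wild-type library (-0.35, SE 0.09, adjusted p = 0.0085). With these 2 groups fitted alone its adjusted p was 0.0574. The order of the group means was MiaPaCa2 wild-type, Panc1 knockout, Panc1 wild-type and MiaPaCa2 knockout, with each neighbouring pair overlapping. The wild-type lines did not differ past the threshold (-0.16, adjusted p = 0.112), but SLC2A1 passed as lower in Panc1 in 5 of 27 alternatives. These were array weights (-0.20, adjusted p = 0.0119), the GC and length correction without or with the replicate block (-0.23, adjusted p = 0.0168 and 0.0259), neighbours (-0.33, adjusted p = 0.00368) and the fit without MiaPaCa2 wild-type replicate 1 (-0.23, adjusted p = 0.0321).

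SLC2A3 (GLUT3, a carrier of high affinity typical of neurons, on 12:8071826-8171603) was near absent in Panc1, at 0.059, 0 and 0 FPKM in wild-type and 0.012, 0.012 and 0 in knockout. In MiaPaCa2 wild-type it was 0.618, 0.74 and 0.923, and in knockout 3.35, 2.36 and 3.47. The MiaPaCa2 groups did not overlap, and the ratio of their means was 4.02 (1.20 on the log2(FPKM + 1) scale, SE 0.10, adjusted p = 3.1e-06). The level stayed low beside SLC2A1: SLC2A3 made up 2.90 ± 0.444% of the 2 transporters in MiaPaCa2 wild-type and 13.4 ± 1.09% in knockout. SLC2A3 entered the test only through the MiaPaCa2 knockout libraries, and a gene that enters this way had to differ. Its near-identical copy SLC2A14 could share reads with it.

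Among the hexokinases HK1, the widely expressed isoform (on 10:71029740-71161640), was the more abundant in all 12 libraries. It stood at 35.5, 36.1 and 36.4 FPKM in Panc1 wild-type and 30.4, 32.1 and 34.3 in knockout (-0.15, SE 0.06, adjusted p = 0.0498). In MiaPaCa2 it was 26.2, 23.4 and 23.5 in wild-type and 29.1, 26.3 and 30.8 in knockout (0.23, adjusted p = 0.0158). Neither pair overlapped, and the directions were opposite. The Panc1 call lay at the threshold and was lost in 17 of 27 alternatives, among them the leaving out of any Panc1 wild-type library, of Panc1 knockout replicate 1 or 2, or of any of 3 MiaPaCa2 libraries (wild-type replicate 2 or 3, or knockout replicate 1). The MiaPaCa2 call was lost in 4 of 27, with an adjusted p of 0.0598 to 0.0634 without wild-type replicate 2 or 3 or knockout replicate 3.

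HK2, the inducible hexokinase bound to mitochondria in many tumours (on 2:75061254-75120486), stood at 3.58, 3.82 and 3.76 FPKM in Panc1 wild-type and 6.66, 5.39 and 4.83 in knockout. All knockout libraries were higher, and the ratio of means was 1.51 (0.48, SE 0.09, adjusted p = 0.00055). This call held in all 27 alternatives. The 62 tested genes within 5 Mb had a median of 0.11 there. MiaPaCa2 wild-type had 9.89, 11.1 and 10.96 and knockout 7.97, 9.44 and 8.48, with no overlap (-0.27, SE 0.09, adjusted p = 0.0342). In MiaPaCa2 those 62 genes had a median of -0.39, and relative to them HK2 was at 0.12 (adjusted p = 0.361), against a median of -0.15 over the whole of chromosome 2. The MiaPaCa2 call was lost without wild-type replicate 2 or 3 or knockout replicate 1 or 3 (adjusted p from 0.0739 to 0.121). HK2 made up 9.37 ± 0.214% of the 2 hexokinases in Panc1 wild-type and 14.9 ± 2.85% in knockout, against 30.4 ± 2.64% in MiaPaCa2 wild-type and 23.2 ± 2.81% in knockout. The lines thus stood closer together as knockout than as wild-type, at -0.55 against -1.30 (log2, Panc1 minus MiaPaCa2).

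The fructose 2,6-bisphosphate enzymes parted in the same cells. PFKFB3, the isoform with the strongest kinase activity (on 10:6186897-6296607), stood at 6.82, 6.42 and 6.33 FPKM in Panc1 wild-type and 7.09, 6.85 and 7.06 in knockout. In MiaPaCa2 it was 17.4, 18.0 and 16.4 in wild-type and 17.6, 18.0 and 18.6 in knockout. It was higher in MiaPaCa2 in every library (-1.28, Panc1 minus MiaPaCa2, SE 0.05, adjusted p = 3.5e-11). It did not pass with knockout in Panc1 (0.09, 95% interval -0.02 to 0.20, adjusted p = 0.123) or in MiaPaCa2 (0.06, 95% interval -0.05 to 0.17, adjusted p = 0.362). In Panc1 it was called with median-ratio scaling at 0.19, with quantile normalization at 0.25 and relative to its 19 neighbours, whose median was -0.23, at 0.32.

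PFKFB4 (on 3:48555117-48599448) was low throughout, at 2.80, 3.07 and 2.72 FPKM in Panc1 wild-type and 2.22, 2.06 and 2.15 in knockout (-0.30, SE 0.07, adjusted p = 0.0029). It was 2.42, 1.93 and 2.004 in MiaPaCa2 wild-type and 3.16, 3.69 and 3.54 in knockout (0.52, SE 0.07, adjusted p = 0.00019). Neither pair overlapped, and each call held in all 26 alternatives. The medians of 143 neighbouring genes were -0.12 in Panc1 and 0.04 in MiaPaCa2. UCN2, which overlaps PFKFB4 on the same strand, was at most 1.71 FPKM and was higher with knockout in both lines (0.34 in Panc1 and 0.33 in MiaPaCa2). PFKFB4 as a share of PFKFB3 and PFKFB4 was 30.5 ± 1.66% and 23.4 ± 0.386% in wild-type and knockout Panc1, and 10.9 ± 1.29% and 16.1 ± 0.877% in wild-type and knockout MiaPaCa2.

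PDK1, the kinase that turns pyruvate away from the mitochondrion (on 2:173420101-173473397), was low in all 12 libraries. It stood at 2.25, 2.31 and 2.26 FPKM in Panc1 wild-type and 2.07, 1.91 and 1.59 in knockout, which did not overlap but missed the threshold (-0.20, SE 0.08, adjusted p = 0.0531). In MiaPaCa2 it was 2.16, 1.64 and 1.70 in wild-type and 2.22, 2.21 and 2.65 in knockout (0.25, SE 0.08, adjusted p = 0.0385). The MiaPaCa2 call was lost in 13 of 26 alternatives, among them without MiaPaCa2 wild-type replicate 2 or 3, MiaPaCa2 knockout replicate 1 or 3, any Panc1 wild-type library or Panc1 knockout replicate 2 (adjusted p from 0.0501 to 0.142). The Panc1 difference passed in 7 of 26, with an adjusted p of 0.0304 without knockout replicate 1, 0.0319 without MiaPaCa2 wild-type replicate 1 and 0.044 without MiaPaCa2 knockout replicate 3. The wild-type lines differed by 0.21 (adjusted p = 0.0325), a call lost in 8 of 26 alternatives and turned to -0.032 by quantile normalization.

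SLC16A3 (on 17:80175810-80219005) exports lactate and stood at 161, 155 and 157 FPKM in Panc1 wild-type and 45.3, 49.9 and 49.1 in MiaPaCa2 wild-type (1.69, SE 0.08, adjusted p = 3.5e-10). With knockout it was 174, 182 and 190 in Panc1 (0.21, SE 0.08, adjusted p = 0.0397) and 28.7, 24.0 and 32.01 in MiaPaCa2 (-0.76, SE 0.08, adjusted p = 2.6e-05). The groups of a line did not overlap in either case, so the gap between the lines was wider as knockout, at 2.65. The MiaPaCa2 call held in all 27 alternatives. The Panc1 call was lost in 13 of 27, among them without any wild-type library and without knockout replicate 2 or 3 (adjusted p from 0.0645 to 0.127), and its 82 neighbours had a median of 0.17. CSNK1D overlaps SLC16A3 on the other strand, and whether counting used strand is not stated. CSNK1D was higher with knockout in Panc1 (0.18, adjusted p = 0.0015), and in MiaPaCa2 it was at 0.02 (adjusted p = 0.815).

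SLC16A1, or MCT1, the other main lactate carrier, ran the other way between the lines, at 17.7 ± 0.566 FPKM in Panc1 wild-type and 40.8 ± 2.93 in MiaPaCa2 wild-type (-1.15, adjusted p = 1.7e-09). SLC16A3 made up 89.9 ± 0.327% of the 2 carriers in Panc1 wild-type and 91.6 ± 0.908% in knockout, and 54.2 ± 1.74% in MiaPaCa2 wild-type and 38.4 ± 4.52% in knockout. Each of the pair shares given for the transporters in MiaPaCa2, and for the hexokinases, the PFKFB enzymes and the lactate carriers in both lines, separated wild-type from knockout without overlap (exact permutation p = 0.1 in each of the 7 comparisons, the smallest possible). The transporter share in Panc1 overlapped, at 0.0902 ± 0.156% in wild-type and 0.0321 ± 0.0278% in knockout. Of all genes tested singly, 70.1% in Panc1 and 43.5% in MiaPaCa2 did not overlap. These shares were chosen after the values were seen, so their separation is a description and no support. The transporter share in MiaPaCa2 also rests on SLC2A3, which entered the test only through the knockout libraries there.

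**Figure D3:**
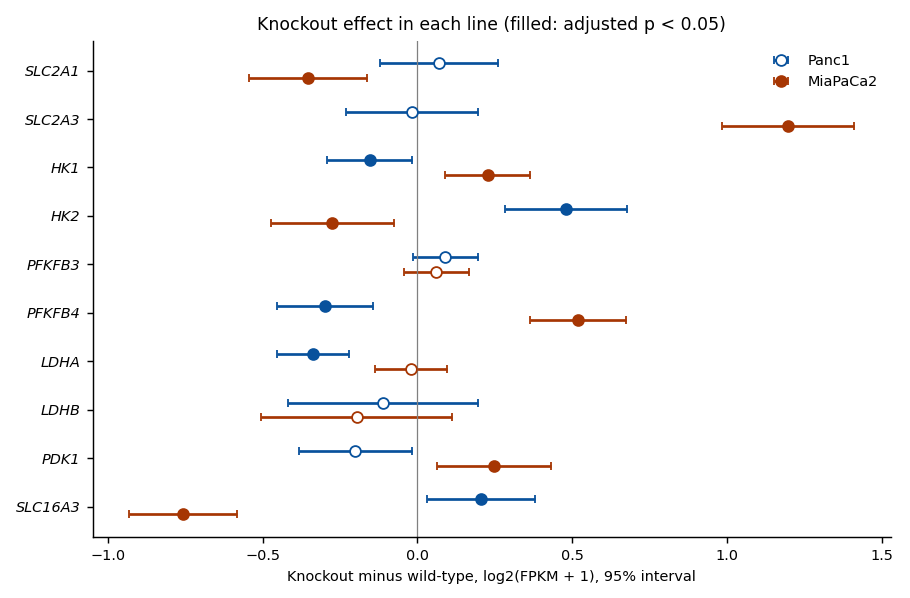
Knockout minus wild-type on the log2(FPKM + 1) scale (horizontal axis) for each gene in Panc1 (blue) and MiaPaCa2 (orange), with 95% intervals from limma; filled points passed an adjusted p of 0.05. HK1, HK2, PFKFB4 and SLC16A3 are filled on opposite sides of 0 in the 2 lines.

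The knockout effect itself differed between the lines in 8 of the 10 genes, by the interaction of line and genotype (Panc1 effect minus MiaPaCa2 effect). It was higher in Panc1 for SLC16A3 (0.96, adjusted p = 2.3e-05), HK2 (0.75, adjusted p = 0.00037) and SLC2A1 (0.42, adjusted p = 0.011). It was lower in Panc1 for SLC2A3 (-1.21, adjusted p = 1.8e-05), PFKFB4 (-0.82, adjusted p = 3.3e-05), PDK1 (-0.45, adjusted p = 0.0067), HK1 (-0.38, adjusted p = 0.0033) and LDHA (-0.32, adjusted p = 0.0038). LDHB and PFKFB3 did not pass. Of all genes 57.4% passed this test, 20% higher and 37.4% lower in Panc1, and 65.2% of the called genes were lower as deposited against 48.9% after median-ratio scaling. SLC2A1, SLC2A3, PFKFB4 and SLC16A3 passed in every alternative run. The pass of SLC2A3 is no support, since it entered the test only through the MiaPaCa2 knockout libraries. Relative to neighbours within 5 Mb, LDHA (0.09, adjusted p = 0.34), PDK1 (-0.28, adjusted p = 0.0661), HK1 (-0.18, adjusted p = 0.122) and HK2 (0.21, adjusted p = 0.188) no longer passed, while LDHB (0.57, adjusted p = 0.0336) and PFKFB3 (0.20, adjusted p = 0.0278) did. LDHB was at most 0.614 FPKM in any MiaPaCa2 library, so its knockout effect there rests on values at the floor. Its pass therefore cannot show that the knockout effect differs between the lines. The LDHA interaction was also lost with the GC and length correction (-0.08, adjusted p = 0.473) and with median-ratio scaling (-0.17, adjusted p = 0.0878). That of PDK1 was lost with the correction (-0.17, adjusted p = 0.293) and with quantile normalization (-0.28, adjusted p = 0.0615). In HK1, HK2, PFKFB4 and SLC16A3 the effect was called in both lines with opposite signs.

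**Figure D4:**
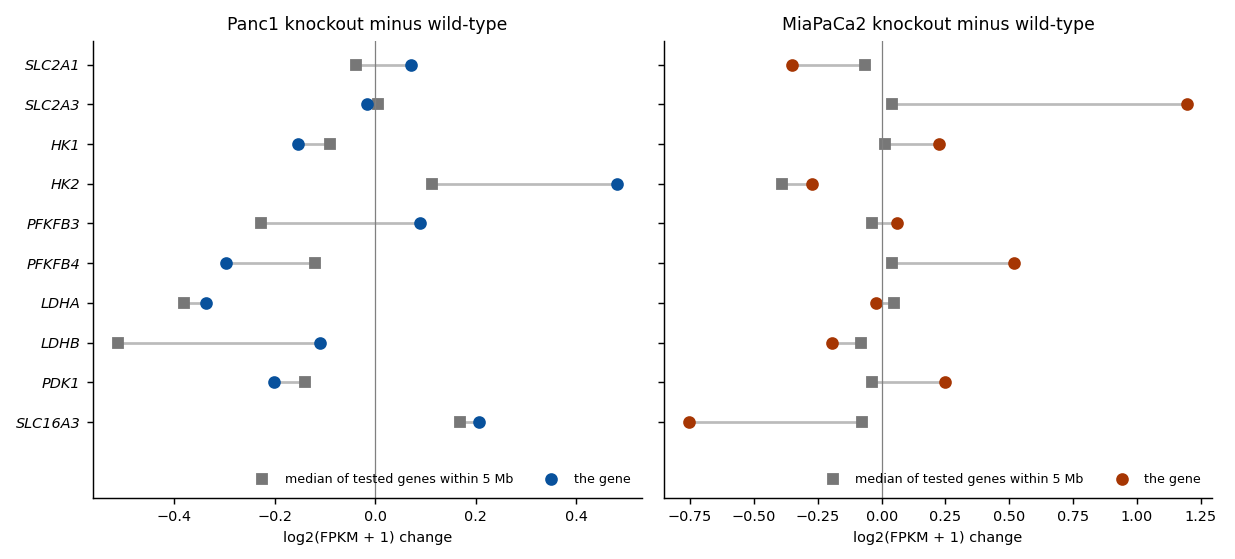
Knockout minus wild-type (log2(FPKM + 1), horizontal axes of different range) of each gene (circles) and the median of the tested genes within 5 Mb of it (squares), Panc1 left and MiaPaCa2 right. In Panc1 the circle of LDHA lies beside its square, and in MiaPaCa2 HK2 lies at -0.27 with its square at -0.39, while SLC2A3, PFKFB4 and SLC16A3 lie far from theirs.

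The rest of the pathway was read from 8 lists of related genes. Their counts stand against 21.8% of all genes higher and 41.6% lower with knockout in Panc1, 17.8% higher and 16.3% lower in MiaPaCa2, and 41.8% higher and 40.9% lower in Panc1 between the wild-type lines. Of 15 tested other glycolytic enzymes, 6 were higher and 6 lower with knockout in Panc1 (median 0.14, all genes -0.10). The named falls were PGAM2 (-0.74, adjusted p = 0.00096), a muscle phosphoglycerate mutase, ENO2 (-0.60, adjusted p = 2.3e-06), the neuronal enolase, and GPI (-0.46, adjusted p = 2.3e-05), which makes fructose 6-phosphate. PGAM2 was low, at 1.80 FPKM on average in wild-type and 0.658 in knockout, and at -0.25 (adjusted p = 0.173) relative to its neighbours. The naming rule took the largest changes. Among the enzymes that rose, the abundant ENO1 averaged 1467 FPKM in wild-type and 1992 in knockout, with no overlap. In MiaPaCa2 5 were higher and 3 lower (median -0.07, all genes 0.01), with PGAM2 at 0.72 and ALDOC, an aldolase, at 0.64 among the higher and PFKP, the platelet phosphofructokinase, at -0.26 among the lower. Between the wild-type lines 9 of 15 were lower in Panc1 and 4 higher. PFKL, the liver phosphofructokinase, averaged 25.3 FPKM in Panc1 and 128 in MiaPaCa2 (-2.29, adjusted p = 1.7e-13). TPI1, triosephosphate isomerase, averaged 337 and 772 FPKM (-1.19, adjusted p = 7.2e-10).

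The pyruvate dehydrogenase list, the target of PDK1, was measured in full. In Panc1 8 of its 11 genes were lower and 1 higher with knockout (median -0.26, all genes -0.10), beside 41.6% and 21.8% of all genes. PDHA1, the catalytic subunit that PDK1 phosphorylates, averaged 17.6 FPKM in wild-type and 9.26 in knockout (-0.86, SE 0.05, adjusted p = 2.5e-08). DLD (-0.77) and DLAT (-0.67), the other core enzymes, were lower too. Their neighbours within 5 Mb had medians of -0.59 around PDHA1, -0.35 around DLD and -0.42 around DLAT. Relative to these medians, PDHA1 was at -0.27, DLD at -0.42 and DLAT at -0.25, smaller falls that kept their calls. In MiaPaCa2 5 of 11 were higher and 1 lower (median 0.11, all genes 0.01), beside 17.8% and 16.3% of all genes. The phosphatase PDP1, which reactivates the complex, was 2.30, 1.64 and 1.49 FPKM in wild-type and 7.57, 7.51 and 7.10 in knockout (1.59, SE 0.09, adjusted p = 1e-07). PDK4, a kinase that inactivates it, was 0.285, 0.392 and 0.455 in wild-type and 2.61, 3.66 and 3.10 in knockout, with no overlap and a ratio of means of 8.28. It averaged 0.231 and 0.077 in Panc1 wild-type and knockout, so it entered the test only through the MiaPaCa2 knockout libraries, and its call is no support. The neighbours of PDP1 and PDK4 had medians of 0.04 and 0.02 there.

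Among 7 tested other glucose transporters, 2 were higher and 1 lower with knockout in Panc1, the latter SLC2A12 (-0.70), and 2 were higher and 2 lower in MiaPaCa2, with SLC2A6 at 0.49. Of 3 tested other hexokinases and fructose bisphosphate regulators, TIGAR (-0.31), a fructose 2,6-bisphosphatase, and ADPGK (-0.18) were lower in Panc1, and PFKFB2 (0.42), the heart isoform, was higher in MiaPaCa2. ADPGK was lost in 5 of 27 alternatives, at -0.07 (adjusted p = 0.276) with median-ratio scaling and -0.06 (adjusted p = 0.354) with quantile normalization, and TIGAR was at -0.09 (adjusted p = 0.132) with the GC and length correction. SLC2A6 (adjusted p = 0.053) and PFKFB2 (adjusted p = 0.0604) were lost with the MiaPaCa2 groups fitted alone, as was PFKP (adjusted p = 0.0771). Of 6 tested other carriers and dehydrogenases of lactate and pyruvate, 1 was higher and 3 lower in Panc1. BSG, the chaperone that carries SLC16A1 and SLC16A3 to the membrane, averaged 334 FPKM in Panc1 wild-type and 472 in knockout (0.49, adjusted p = 2.9e-06). EMB, among the lower genes, averaged 11.4 FPKM in Panc1 wild-type and 8.63 in knockout (-0.38, adjusted p = 0.00072). That EMB call was lost relative to neighbours (0.09, adjusted p = 0.338) and with the GC and length correction (adjusted p = 0.965). In MiaPaCa2 1 was higher, BSG at 0.15 (adjusted p = 0.029), and 1 lower. That BSG call was lost in 7 of 27 alternatives, at 0.07 (adjusted p = 0.353) with quantile normalization, 0.13 (adjusted p = 0.106) with median-ratio scaling and with an adjusted p of 0.055 to 0.0928 without MiaPaCa2 wild-type replicate 2 or 3 or knockout replicate 2 or 3. The lower gene was MPC1, a subunit of the mitochondrial pyruvate carrier, which fell in both lines (-0.55 in Panc1 and -0.47 in MiaPaCa2). The pentose phosphate pathway had 2 of 7 higher and 2 lower in Panc1. In MiaPaCa2 it had none higher and 5 lower (median -0.30), beside 17.8% and 16.3% of all genes, with RPIA (-0.45), which interconverts pentose phosphates, and PGLS (-0.35), a lactonase, among them.

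Regulators of glucose genes and hypoxia-induced genes gave the setting. In Panc1 knockout 2 of 9 tested regulators were higher and 3 lower: HIF1A, the oxygen-regulated factor, averaged 40.0 FPKM in wild-type and 23.3 in knockout (-0.75, adjusted p = 2.4e-05), EGLN1, its hydroxylase, was at -0.44, and MYC averaged 19.2 and 27.4 (0.49, adjusted p = 3.9e-06). Of 7 tested hypoxia-induced genes outside glucose metabolism, 1 was higher in Panc1 (ADM, 0.55) and 1 lower (BNIP3, -0.27). In MiaPaCa2 knockout 4 of these 7 were higher and none lower (median 0.23, all genes 0.01). VEGFA was 11.6, 9.497 and 9.99 FPKM in wild-type and 19.8, 23.7 and 18.7 in knockout (0.93, SE 0.11, adjusted p = 5.2e-05), ADM was at 0.92 and NDRG1 at 0.82. Of the regulators there 1 was higher, MYC at 0.24, and 3 lower, among them TXNIP (-0.56), a brake on glucose uptake, and EGLN1 (-0.51). Between the wild-type lines EPAS1, or HIF-2 alpha, averaged 24.3 FPKM in Panc1 and 0.308 in MiaPaCa2, while TXNIP averaged 0.763 and 20.5. EPAS1 entered the test only through Panc1 and TXNIP only through MiaPaCa2, so each had to differ between the lines. HIF1A did not differ past the threshold between the wild-type lines (-0.06, adjusted p = 0.589).

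**Figure D5:**
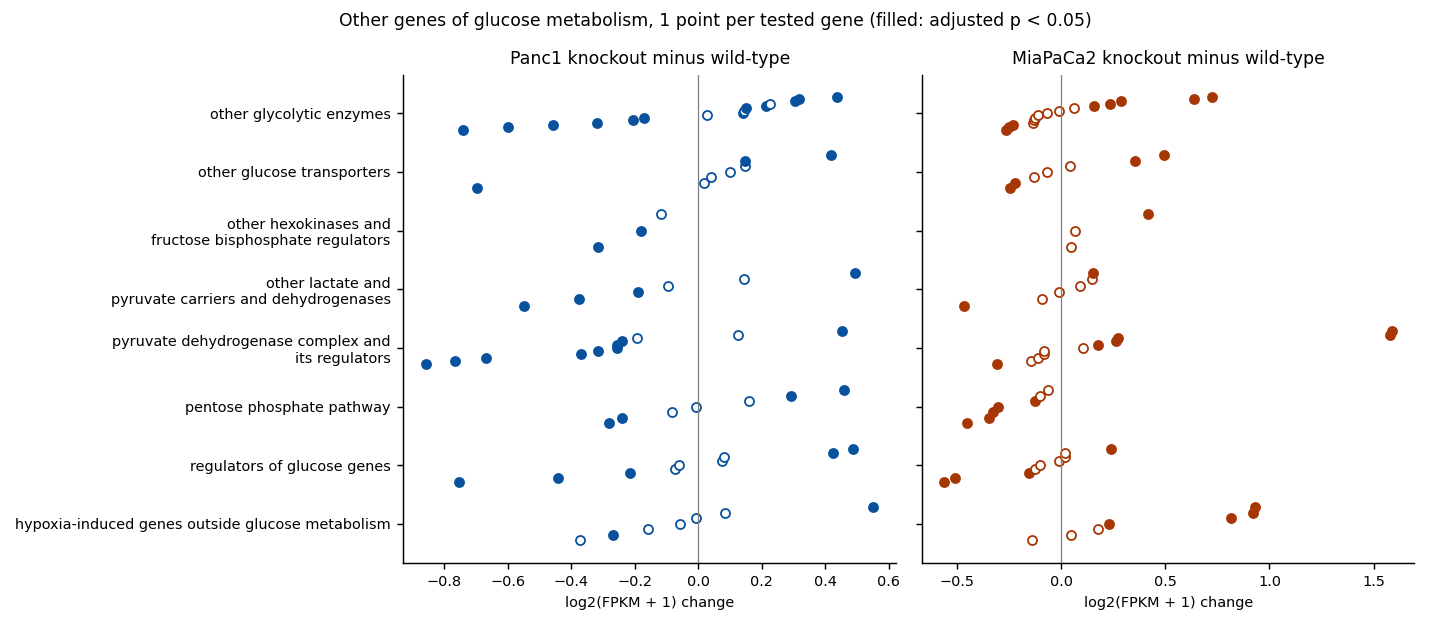
Knockout minus wild-type (log2(FPKM + 1), horizontal axes of different range) of the tested genes of the 8 related lists, 1 point per gene, Panc1 left and MiaPaCa2 right; filled points passed an adjusted p of 0.05. In Panc1 most points of the pyruvate dehydrogenase list lie left of 0, and in MiaPaCa2 PDP1 and PDK4 lie near 1.6.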

How the data were processed

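ISOGEN II was used to extract total RNA, which was sequenced on a BGISEQ-500, per the labels' protocols and the series design text. Per that text, with tools and build also named in the submitters' processing notes, trimmed reads were aligned to hg19 and its UCSC annotation by TopHat2 2.0.14, and STAR 2.5.2a gave the FPKM. The deposited files hold FPKM per gene symbol, 1 file per library. Strandedness and the treatment of reads with several matches are not stated in the sources used. Steps of single reads were not found in the values (mean distance to whole reads 0.222 to 0.238, against 0.25 without steps), so depth is unknown and no count test was run.

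A symbol absent from a library counted as 0. limma 3.58.1 in R 4.3.3 was fitted to log2(FPKM + 1) with 1 mean for each of 4 groups, 8 residual degrees of freedom and a mean-variance trend. Genes averaging 1 FPKM or more across the 6 libraries of either line, 13340 in all, were tested, with Benjamini-Hochberg adjustment and a threshold of 0.05. All 10 members passed this filter. Shares were compared by exact permutation. In simulated data the Panc1 contrast recovered 98% of 100 changes of 1 and 55% of 100 changes of 0.3 (log2) among 13340 genes, with 9 false calls. Gene positions are from GENCODE 44 on GRCh37. Neighbours are the tested genes within 5 Mb. Their median was subtracted as a fixed value. Every p-value relative to neighbours therefore leaves out the uncertainty of that median, which some genes take from few neighbours. Alternatives were another constant (0.1), filters, TPM, median-ratio and quantile scaling, no trend, array weights, groups fitted alone, a replicate block, a GC and length correction, neighbours, and leaving out each library. From each related list, up to 3 called genes per comparison could be named, those changed most whose groups did not overlap and whose higher group averaged 1 FPKM or more; a few more were named after their values were seen. A named gene of the pentose phosphate list is not reported here. The members and lists were chosen with earlier results of these data known.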

Additional observations from a re-analysis of the deposited data

Results flagged for a closer look

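The knockout effect differed between Panc1 and MiaPaCa2 in 8 of the 10 genes by the interaction test (limma, Benjamini-Hochberg adjusted). Of all genes tested, 57.4% passed it. The difference, Panc1 minus MiaPaCa2 on the log2(FPKM + 1) scale, was 0.42 for SLC2A1, -1.21 for SLC2A3, -0.38 for HK1 and 0.75 for HK2. It was -0.82 for PFKFB4, -0.32 for LDHA, -0.45 for PDK1 and 0.96 for SLC16A3. Relative to neighbours within 5 Mb, HK1, HK2, LDHA and PDK1 no longer passed. LDHA and PDK1 were also lost with the GC and length correction. SLC2A1, SLC2A3, PFKFB4 and SLC16A3 passed this test under every alternative run, 24 to 26 per gene. SLC2A3 entered the test only through the MiaPaCa2 knockout libraries, so its interaction is no support.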

How the results depend on the processing

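In every one of the alternatives run, 4 of the 10 genes kept their side of the threshold with knockout in Panc1, 6 in MiaPaCa2, 4 for the interaction, 6 between the wild-type lines and 6 between the knockout lines. Of those, genes that were not called changed sign: SLC2A1 (-0.0021 to 0.185) and SLC2A3 (-0.114 to 0.1002) in Panc1, and LDHA (-0.0701 to 0.0444) and LDHB (-0.682 to 0.0339) in MiaPaCa2. In Panc1 the genes higher numbered 1 in place of 2 with no filter, on the TPM scale, without the trend, with the GC and length correction, with that correction and the replicate block, and with the first wild-type library of both lines left out (an alternative added after seeing the data); those lower numbered 1 in place of 3 relative to neighbours and with the correction and the block. In MiaPaCa2 the genes higher numbered 1 in place of 4 with a filter of 5 FPKM and 2 with groups fitted alone. The lower interactions numbered 2 in place of 5 with that filter and relative to neighbours, and 3 with the correction, with or without the block. The knockout lines had 2 in place of 5 lower with the filter of 5 FPKM. That filter leaves fewer genes tested; the cause of the other changes was not tested.

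Relative to neighbours within 5 Mb, values turned sign for LDHA (0.043) and LDHB (0.40, past the threshold) with knockout in Panc1, HK2 in MiaPaCa2 (0.12), the LDHA interaction (0.092), SLC2A3 between wild-type lines (0.037), and LDHA (0.31) and PDK1 (0.10) between knockout lines. So did EMB in Panc1 (0.086) and TIGAR (0.13) and ADPGK (-0.31) between wild-type lines. PDK1 between wild-type lines was -0.032 with quantile normalization, and LDHA between knockout lines was 0.15 with the correction, with or without the block. Of the related genes that the naming rule picked, not all of them described above, 16 of 21 kept their call in Panc1, 15 of 21 in MiaPaCa2 and 21 of 24 between wild-type lines.

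The LDHA share differed between the lines by 36.9 points in wild-type and 40.7 in knockout libraries. The Panc1 knockout difference was -1.56 points with the correction. The MiaPaCa2 difference of 0.0556 was -0.00704 without wild-type replicate 1, alone or with that of Panc1.

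Leaving out each library in turn gave ranges. In Panc1, 1 to 2 members were higher, 2 to 4 lower and 7642 to 8816 genes called; in MiaPaCa2 2 to 4, 2 to 3 and 3413 to 4592; for the interaction 3, 5 and 6944 to 7679; between wild-type lines 5 to 6, 3 to 4 and 10661 to 11198; between knockout lines 2 to 4, 4 to 5 and 10944 to 11292. The share differences ran from 38.4 to 39.2, from -4.57 to -2.91 and from -0.00704 to 0.0869 points.

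Within a line, replicate numbers did not pair the samples: same-numbered libraries correlated at -0.165 to 0.0777, and other numbers at -0.192 to 0.254. There, 4 of 12 libraries correlated best with their own number. Same-numbered libraries of any 2 groups ran from -0.165 to 0.459 (18 pairs, median 0.0365). Other numbers ran from -0.324 to 0.27 (36 pairs, median -0.0172). Whether libraries of the same number share a batch across the lines was not tested. With the replicate block HK1 in Panc1 had an adjusted p of 0.0503. In Panc1 2900 genes were then called higher and 5544 lower, in place of 2910 and 5556.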

Other observations

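Over the 12 libraries the levels of some other genes followed those of the members. The Pearson correlation of log2(FPKM + 1), given as a description among 8556 genes averaging 5 FPKM or more, was highest with LDHB for CD24, PDLIM1 and ANPEP, each at r = 0.9995. These 3 genes averaged 401, 227 and 290 FPKM in Panc1 wild-type and 0.52, 0.212 and 0.169 in MiaPaCa2 wild-type, so the coefficient reflects 2 separate lines. For LDHA the nearest genes were NOL12 (0.970), POLR3A (0.962) and TRAFD1 (0.958). For HK2 they were TPM4, H6PD and SMURF2, all at 0.986, and for SLC2A3 BANP (0.982), TSPYL4 (0.978) and ZNF317 (0.978). Among the members themselves, PFKFB3 and LDHB stood at -0.996, HK1 and HK2 at -0.956 and SLC16A3 and LDHB at 0.967. All 12 libraries share the line difference.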
